A study of Mus musculus with 6 samples.

Results

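The collagen genes outside the basement membrane set were taken as every row of the expression table whose symbol has the form Col, number, a, number, leaving out Col4a1, Col4a2 and Col18a1. The rule found 41 genes among 24421 rows, and all 41 were above 0 in all 6 libraries. By class, 11 encode fibrillar collagens, 7 network collagens, 9 FACIT collagens (fibril-associated collagens with interrupted triple helices) and 4 transmembrane collagens. The remaining 10 encode the beaded filament chains of collagen VI and collagens VII, XV, XXVI and XXVIII. RNA was sequenced from retinal endothelial cell preparations of C57BL/6 mouse pups at postnatal day 7. The control group, called wild type in the sample titles, consisted of 3 Anxa3 fl/fl libraries, and the mutant group of 3 Anxa3 fl/fl;Tie2-Cre libraries. Both groups carry floxed Anxa3 alleles and only the mutants carry Cre, so Cre activity and the loss of Anxa3 cannot be told apart. Tie2-Cre acts in endothelial cells and also in blood-lineage cells. The number of pups behind a library is not given in the sources used here, and p-values refer only to the spread among the libraries, which may be technical.

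Collagens are trimers whose chains wind into a triple helix, which requires glycine at the first position of each Gly-X-Y residue triplet. Fibrillar chains are made as procollagens, folded and hydroxylated in the endoplasmic reticulum, trimmed outside the cell and packed into fibrils. FACIT collagens sit on the fibril surface, network collagens form sheets, collagen VI forms beaded filaments, and transmembrane collagens span the plasma membrane. In the eye, collagens II, IX, XI and V make up the fibrils of the vitreous, while collagens I, III, VI and XV belong to the stroma and outer wall of vessels.

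The coding sequences show the glycine repeat that defines the family. One exon of 54 bases is given for a member of each class, 5′ to 3′ on the coding strand, with complete glycine codons that open a Gly-X-Y triplet in capitals. Sequences and positions were read from GENCODE M21 (GRCm38, equal to mm10).
Col2a1, fibrillar, chr15:97998545-97998598, minus strand: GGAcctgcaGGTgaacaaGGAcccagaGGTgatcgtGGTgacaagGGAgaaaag
Col9a1, FACIT, chr1:24202014-24202067, plus strand: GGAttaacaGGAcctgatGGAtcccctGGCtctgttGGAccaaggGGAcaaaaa
Col17a1, transmembrane, chr19:47663803-47663856, minus strand: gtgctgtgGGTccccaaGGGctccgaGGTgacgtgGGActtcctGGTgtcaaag
Col4a5, network, chrX:141575988-141576041, plus strand: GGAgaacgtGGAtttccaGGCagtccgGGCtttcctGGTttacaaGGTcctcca
Col6a1, beaded filament, chr10:76719623-76719676, minus strand: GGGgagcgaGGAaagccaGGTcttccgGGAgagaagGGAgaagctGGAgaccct
These exons of Col2a1, Col9a1, Col4a5 and Col6a1 open on a glycine codon and hold 6 of them, whereas the Col17a1 exon opens inside a codon and holds 5.

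Fibrillar members stood apart from the other classes in how long the helix ran without a break, counted from the codons of the longest complete coding sequence of each gene. Fibrillar members had a longest unbroken run of 216 to 344 triplets with a median of 338. The shortest were Col24a1 with 216 and Col27a1 with 217, both encoding chains with a shorter helix. FACIT members ran to 32 to 113 triplets, network members to 39 to 60 and transmembrane members to 40 to 55. Runs of 5 or more triplets numbered 2 to 3 in fibrillar members and 9 to 27 in network members. Exons of exactly 54 bases made up 41.2% to 55% of the coding exons in fibrillar members and 0% to 5.7% in network members. Among FACIT members Col22a1 stood within the fibrillar range at 44.4%, as did Col9a2 and Col9a3, both at 43.8%, and Col9a1 stood close to it at 36.8%.

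**Figure D1:**
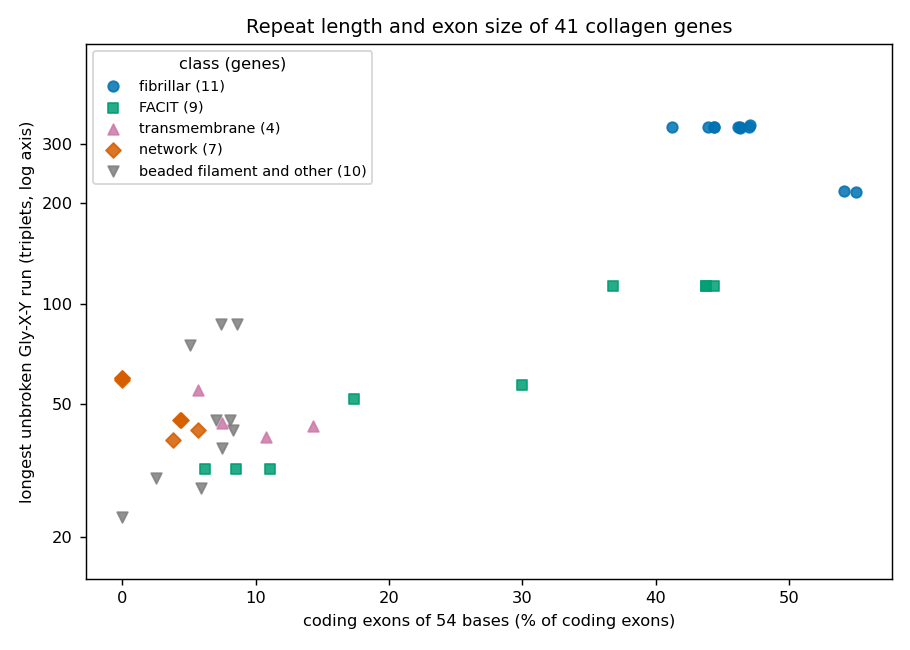
Longest unbroken Gly-X-Y run in triplets (log axis) against the percentage of coding exons that are 54 bases long, 1 point per gene, with shape and colour for the class. Fibrillar genes lie at 216 triplets or more and at least 41.2%, and network genes at 60 triplets or fewer and at most 5.7%.

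The libraries held 21366707 to 30870521 recovered reads. In each, 13329 to 13692 genes reached 1 FPKM (fragments per unit of gene length and of a depth factor of the library). That factor was not the number of reads held. In mutant replicate 3 it was 27817341 against 26427854 recovered reads, and in mutant replicate 1 it was 21062142 against 21366707. For Anxa3, control replicates 1, 2 and 3 gave 18.7, 17.7 and 43.4 FPKM, and mutant replicates 1, 2 and 3 gave 9.78, 12.5 and 15.1 FPKM. It was lower in each mutant library than in each control library (two-sided exact permutation p = 0.1, the smallest that 3 against 3 allows). The preparations were not pure endothelium. Photoreceptor markers summed to 3622 to 5670 FPKM and endothelial markers to 455 to 994 FPKM, with 12 of 12 and 10 of 10 markers at 1 FPKM or more in every library. Control replicate 3 stood apart, with 994 FPKM of endothelial markers against 455 to 655 in the others. A listed 0 need not mean that a transcript was absent. Eno1, a glycolytic enzyme gene that cells use widely, was listed at 0 in 5 of the 6 libraries. In such mixed preparations, fewer cells of a type and less RNA per cell cannot be told apart.

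No collagen gene passed the test between mutant and control libraries. Of the 41 members, 27 reached the expression filter of 1 FPKM in at least 3 libraries, and 0 of them passed a limma adjusted p of 0.05, with a smallest adjusted p of 0.9998. Over all 13619 genes tested the share called was 0%. Anxa3 itself, lower in each mutant library, was not called either (log2 difference -0.93, limma unadjusted p = 0.0204, adjusted p = 0.9998). The lack of a call therefore does not show that a gene was unchanged. At an unadjusted limma p under 0.05 there were 0 members, against 1.21% of all genes tested. Groups did not overlap for 0 of the 27 tested members, against 4.35% of all genes tested. Of the tested members 19 were higher and 8 lower in mutants, with a median log2 difference of 0.07 on the log2(FPKM + 1) scale, beside a median of -0.01 over all genes tested. This scale understates the change of low genes. The limma 95% interval lay within 1 log2 unit of 0 for 26 of the 27 members, running from -0.85 to 0.76 at its widest among them, and Col17a1 was the exception. That width depends on the scale. With a pseudocount of 0.1, or with voom on recovered reads, 23 of the 27 intervals lay within 1 log2 unit, and that of Col8a1 reached -1.72 and -1.63. The median difference turned to -0.03 with the library letters A to C against D to F as a block, to -0.03 without control replicate 1, and to -0.06 without mutant replicate 3. Just inside the filter were Col1a1, which reached 1.09 FPKM in 3 libraries, and Col8a1, which reached 1.06 FPKM. Just outside it were Col24a1, which reached 0.735 FPKM in 3 libraries, and Col6a4, which reached 0.710 FPKM.

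**Figure D2:**
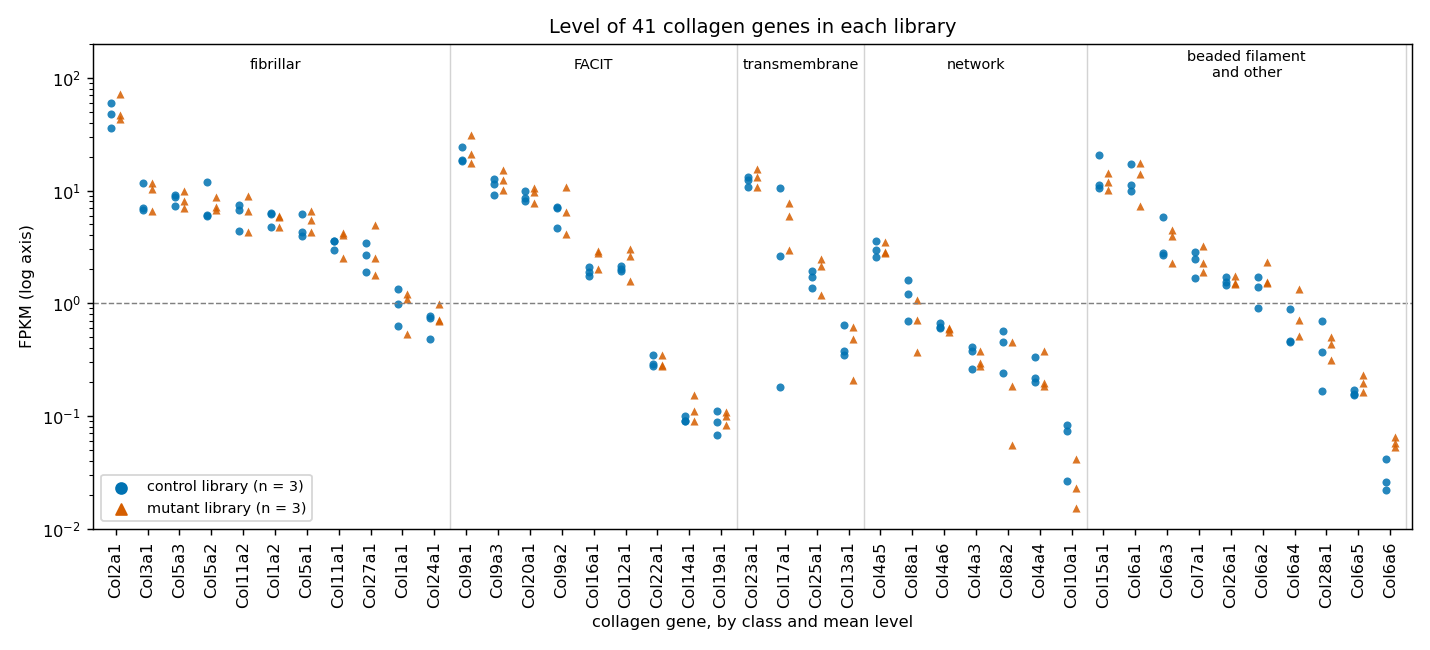
FPKM (log axis) of each of the 41 collagen genes in each library, with circles for the 3 control and triangles for the 3 mutant libraries, ordered by class and mean level. The dashed line marks 1 FPKM. Col2a1 lies highest, at 36 to 71.9 FPKM, and the Col17a1 points spread most widely, from 0.181 to 10.5 FPKM.

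Fibrillar collagens made up the largest share of the members' summed FPKM, 43.8% to 48.4% in each library. Col2a1, the single chain of the collagen II homotrimer, led all members and alone made up 20.4% to 26.1% of the sum. Control replicates 1, 2 and 3 gave 36, 59.4 and 48.1 FPKM, and mutant replicates 1, 2 and 3 gave 43.05, 46.6 and 71.9 FPKM, from 4654 to 10271 reads. Control replicate 1 was lowest and mutant replicate 3 highest, and the ranges overlapped, with means of 47.8 ± 11.7 and 53.85 ± 15.8 FPKM (SD, n = 3 each). The log2 difference was 0.16 (SE 0.23), and its limma 95% interval ran from -0.38 to 0.70. The gene lies at chr15:97975602-98004695 on the minus strand.

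The partners of collagen II in mixed fibrils, the collagen XI chains, were lower in level. Col11a2 measured 4.38, 6.69 and 7.37 FPKM in the controls and 4.30, 6.65 and 8.92 FPKM in the mutants. Col11a1 measured 2.97, 3.60 and 3.55 FPKM in the controls and 2.53, 4.23 and 4.05 FPKM in the mutants. Both were lowest in mutant replicate 1, and the groups overlapped. Per kilobase, the level of Col2a1 was 11.01 to 17.8 times that of Col11a1 and 6.52 to 10 times that of Col11a2.

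Collagens I, III and V, the fibril formers of stroma and vessel walls, stood at a few FPKM. Col3a1, whose homotrimer is abundant in distensible tissues, measured 6.79, 7.01 and 11.8 FPKM in the controls and 11.6, 6.65 and 10.2 FPKM in the mutants. Control replicate 3 and mutant replicate 1 were high, control replicates 1 and 2 and mutant replicate 2 were low, and the groups overlapped. Its log2 difference was 0.15, with a standard error of 0.25. Col5a2, a chain of the collagen V that nucleates fibrils, measured 6.11, 5.94 and 11.9 FPKM in the controls and 7.17, 6.68 and 8.85 FPKM in the mutants. Control replicate 3 was again the highest. Col5a1, the chain common to collagen V trimers, averaged 4.82 ± 1.17 FPKM over controls against 5.43 ± 1.11 FPKM over mutants (SD, n = 3 each), and the log2 difference came to 0.15 (SE 0.19). Col5a3, a less widely expressed chain of collagen V, measured 8.38 ± 0.972 and 8.33 ± 1.49 FPKM. Its level was 1.47 to 2.04 times that of Col5a1 in each library.

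The 2 chains of collagen I were unequal, and in the reverse order of the protein trimer, which holds more of the Col1a1 chain. Col1a2 measured 4.72, 6.19 and 6.28 FPKM in the controls and 5.79, 4.73 and 6.00 FPKM in the mutants. Col1a1 measured 0.628, 0.985 and 1.35 FPKM in the controls and 1.20, 0.533 and 1.09 FPKM in the mutants, from 78 to 164 reads. The level of Col1a2 was 4.66 to 8.87 times that of Col1a1 in every library, and both genes overlapped between groups. Of the remaining fibrillar genes, Col27a1 averaged 2.68 ± 0.770 FPKM over controls against 3.08 ± 1.65 FPKM over mutants (SD, n = 3 each). Col24a1 stayed under the filter at 0.477 to 0.990 FPKM.

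FACIT collagens followed, at 21.5% to 26.9% of the members' summed FPKM, and the collagen IX chains led them. All 6 tested FACIT genes had a higher mean log2 value in mutants, with a median difference of 0.15, and 0 passed the limma test. Without mutant replicate 3 only 3 of the 6 were higher, with Col9a1, Col9a2 and Col20a1 lower. With the letter block 4 were higher, and with library weights also 4. Col9a1, whose long form carries an extra amino-terminal domain, measured 18.5, 24.2 and 18.2 FPKM in the controls and 17.7, 21.1 and 31.3 FPKM in the mutants. Mutant replicate 3 was the highest and mutant replicate 1 the lowest, so the mutant values spanned those of all controls. Its log2 difference was 0.17 (SE 0.21), and its limma 95% interval ran from -0.31 to 0.64. Col9a3 measured 9.08, 12.7 and 11.5 FPKM in the controls and 10.2, 12.3 and 15.1 FPKM in the mutants, and the log2 difference came to 0.16 (SE 0.17). Col9a2 measured 4.68, 7.13 and 7.06 FPKM in the controls and 4.13, 6.41 and 10.7 FPKM in the mutants. Mutant replicate 3 was highest for all 3 chains. The protein trimer holds the 3 chains in equal number, while the level of Col9a1 was 2.57 to 4.28 times that of Col9a2 and 1.59 to 2.07 times that of Col9a3. Col9a3 overlaps the protein-coding gene Tcfl5 on the opposite strand. Reads from the pair cannot be separated without strand information, and Tcfl5 itself measured 0.206 to 0.521 FPKM.

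The other FACIT genes ranged from about the level of Col9a3 down to near 0. Col20a1 measured 8.01, 8.66 and 9.87 FPKM in the controls and 7.76, 9.79 and 10.5 FPKM in the mutants, and the log2 difference came to 0.07 (SE 0.14). Col12a1, which decorates collagen I fibrils in tissues under tension, averaged 2.02 ± 0.111 FPKM over controls against 2.41 ± 0.755 FPKM over mutants (SD, n = 3 each), and its log2 difference was 0.15 with a standard error of 0.19. Col16a1 had the smallest unadjusted limma p of all members, 0.104. It measured 1.90, 2.10 and 1.74 FPKM in the controls and 2.91, 1.99 and 2.78 FPKM in the mutants, and mutant replicate 2 lay within the range of the controls. The log2 difference was 0.28 (SE 0.15), and its limma 95% interval ran from -0.07 to 0.63. Col22a1, Col14a1 and Col19a1 stayed under the filter, at means over the libraries of 0.304, 0.106 and 0.0926 FPKM from 14 to 59 reads.

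Transmembrane collagens comprised 7.68% to 11.3% of the summed FPKM. Col23a1, on chr11:51289920-51583918, measured 10.8, 12.5 and 13.3 FPKM in the controls and 10.7, 13.1 and 15.6 FPKM in the mutants. The lowest and the highest value were both mutant. Its log2 difference was 0.09, with a standard error of 0.15. Col25a1, a collagen of neurons, measured 1.37, 1.71 and 1.92 FPKM in the controls and 1.19, 2.14 and 2.45 FPKM in the mutants, again with both extremes in the mutant group. Col13a1 stayed under the filter at 0.210 to 0.647 FPKM.

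Col17a1, a component of the hemidesmosomes that anchor basal epithelial cells, varied between libraries far more than any other tested member. Control replicates 1, 2 and 3 gave 0.181, 10.5 and 2.615 FPKM, and mutant replicates 1, 2 and 3 gave 5.91, 7.71 and 2.99 FPKM. The reads behind these values were 31, 1410 and 375 in the controls and 689, 1329 and 461 in the mutants, so the highest value was 58.0 times the lowest. Both extremes were controls, and every mutant value lay between them. For 25 of the 27 tested members the highest library was less than 3 times the lowest. The exceptions were Col17a1 and Col8a1, the latter at 4.35 times. The log2 difference of Col17a1 was 0.76 (SE 0.73), and its limma 95% interval ran from -0.92 to 2.45. Without control replicate 1 it was -0.05, and without control replicate 2 it was 1.59, which did not pass the limma test either. Other genes of basal and corneal epithelium were listed at or near 0. Krt14 was listed at 0 in all libraries, and Krt5, Krt12, Krt17, Trp63 and Dsp reached at most 0.0699 FPKM. These genes were chosen after the values of Col17a1 were seen. The gene lies at chr19:47646344-47692094 on the minus strand and overlaps no other annotated protein-coding gene.

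The network collagens among the members were low, at 2.05% to 3.07% of the summed FPKM, and 5 of their 7 genes stayed under the filter. This low share follows from the rule, which leaves out the network chains Col4a1 and Col4a2. These measured 214 to 431 FPKM and 131 to 270 FPKM. Col4a5, a chain found in basement membranes of kidney, lung and eye, measured 2.94, 3.56 and 2.55 FPKM in the controls and 3.52, 2.81 and 2.83 FPKM in the mutants. Its partners Col4a3 and Col4a4, with which it forms a trimer, were lower. Col4a3 measured 0.263 to 0.408 FPKM and Col4a4 measured 0.185 to 0.378 FPKM, and Col4a5 was at 6.24 to 12.04 times the level of Col4a3. Col4a3 and Col4a4 start back to back on chromosome 1, and the 71 bases between their starts, chr1:82586850-82586920, read as follows on the strand of Col4a4 in RefSeq's GRCm38.p6 promoter table.
Col4a3 and Col4a4, between the starts: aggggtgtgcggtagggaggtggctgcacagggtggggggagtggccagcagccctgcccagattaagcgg
The pair is printed because a single stretch of sequence separates 2 members of like level, 0.995 to 1.75 in the ratio of Col4a3 to Col4a4. Col4a5 and Col4a6 are also head to head, on the X chromosome, with 1308 bases between their starts, and their levels differed by 4.26 to 5.80 times. The libraries differed in sex make-up, with the X-inactivation transcript Xist at 0.136 and 0.339 FPKM in control replicate 3 and mutant replicate 1 and at 93.5 to 329 FPKM in the others. Col4a5 was lowest in the former and second highest in the latter.

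Col8a1 and Col8a2, the chains of the collagen VIII of Descemet's membrane and vessel walls, had lower means in mutants. Col8a1 measured 0.691, 1.62 and 1.20 FPKM in the controls and 0.372, 0.716 and 1.06 FPKM in the mutants, from 40 to 200 reads. Mutant replicate 1 was lowest and control replicate 2 highest, and the groups overlapped. The log2 difference was -0.34 (SE 0.22), and its limma 95% interval ran from -0.85 to 0.18, and the unadjusted p was 0.174. Col8a2, under the filter, measured 0.239, 0.563 and 0.455 FPKM in the controls and 0.0548, 0.185 and 0.457 FPKM in the mutants. Its reads ran from 5 in mutant replicate 1 to 59 in control replicate 2. Several pigment epithelium markers had the same extremes, and their part in this was not tested. Ttr gave 1.27, 6.225 and 3.54 FPKM in the controls and 0.778, 1.87 and 5.06 FPKM in the mutants, and Pmel, Tyr and Rpe65 were likewise highest in control replicate 2 and lowest in mutant replicate 1. Tyr, at 0.0431 to 0.237 FPKM, had the full library order of Col8a2. Tyr rested on only 3 to 20 reads per library and Rpe65 on 0 to 16. Other markers of the same list differed, with Best1 highest in mutant replicate 1, Mitf in mutant replicate 2 and Wfdc1 in control replicate 3. Col10a1, a collagen of hypertrophic cartilage, had 1 to 8 reads per library and overlaps Nt5dc1 on the opposite strand.

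Collagen VI and the collagens outside the other classes held 13.9% to 21.8% of the summed FPKM. Col15a1, which encodes a collagen of the zone around vascular basement membranes, measured 10.6, 11.2 and 20.8 FPKM in the controls and 11.97, 10.02 and 14.4 FPKM in the mutants. Control replicate 3 stood alone at the top, and the other 5 libraries overlapped. Its log2 difference was -0.16, with a standard error of 0.25, and it became 0.13 without control replicate 3. The excluded basement membrane collagens had the same highest library, with Col4a1 at 431 FPKM in control replicate 3 and 214 to 321 FPKM in the others.

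The collagen VI chains were unequal in level and did not share a pattern. Col6a1 measured 9.97, 11.3 and 17.1 FPKM in the controls and 7.26, 14.05 and 17.6 FPKM in the mutants. Both its lowest and its highest library were mutant, and the log2 difference was -0.03 with a standard error of 0.31. Col6a2 measured 0.904, 1.40 and 1.72 FPKM in the controls and 1.502, 1.55 and 2.30 FPKM in the mutants. Control replicate 1 was lowest and mutant replicate 3 highest, and the log2 difference was 0.26 with a standard error of 0.19. Col6a3, the long chain of the trimer, measured 2.70, 2.80 and 5.78 FPKM in the controls and 4.43, 2.30 and 3.97 FPKM in the mutants. The 3 chains assemble in equal number, while the level of Col6a1 was 4.83 to 11.04 times that of its neighbour Col6a2 and 1.64 to 6.12 times that of Col6a3. Mutant replicate 1 gave the lowest ratio in both cases. Of the alternative chains, Col6a4 measured 0.457 to 1.33 FPKM, Col6a5 0.153 to 0.231 FPKM and Col6a6 0.0221 to 0.0645 FPKM. Col6a6 was the only member, tested or not, whose groups did not overlap. It had 6, 4 and 8 reads in the controls and 9, 15 and 11 in the mutants, and among all rows above 0 in any library 2.77% were higher in each mutant than in each control. Col7a1, the anchoring fibril collagen, averaged 2.33 ± 0.586 FPKM over controls against 2.47 ± 0.666 FPKM over mutants (SD, n = 3 each). Col26a1 varied least among these, from 1.44 to 1.76 FPKM, and Col28a1 ran from 0.166 to 0.694 FPKM on 17 to 76 reads.

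Across libraries, 2 patterns recurred among the tested members. Mutant replicate 3 held the highest value of 15 of the 27 tested members, among them 5 of 6 FACIT genes. Mutant replicate 1 held the lowest value of 11 and control replicate 1 of 8. The matching shares over all genes tested are not given here, so these counts cannot be read as particular to collagens. Col2a1, Col9a1, Col9a2 and Col9a3 were high in mutant replicate 3 and next in control replicate 2. Col1a1, Col3a1 and Col6a3 had the same order as one another, from control replicate 3 through mutant replicates 1 and 3 and control replicates 2 and 1 down to mutant replicate 2. Control replicate 3 was the highest of all libraries for 6 tested members, among them Col1a2, Col5a2 and Col15a1.

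**Figure D3:**
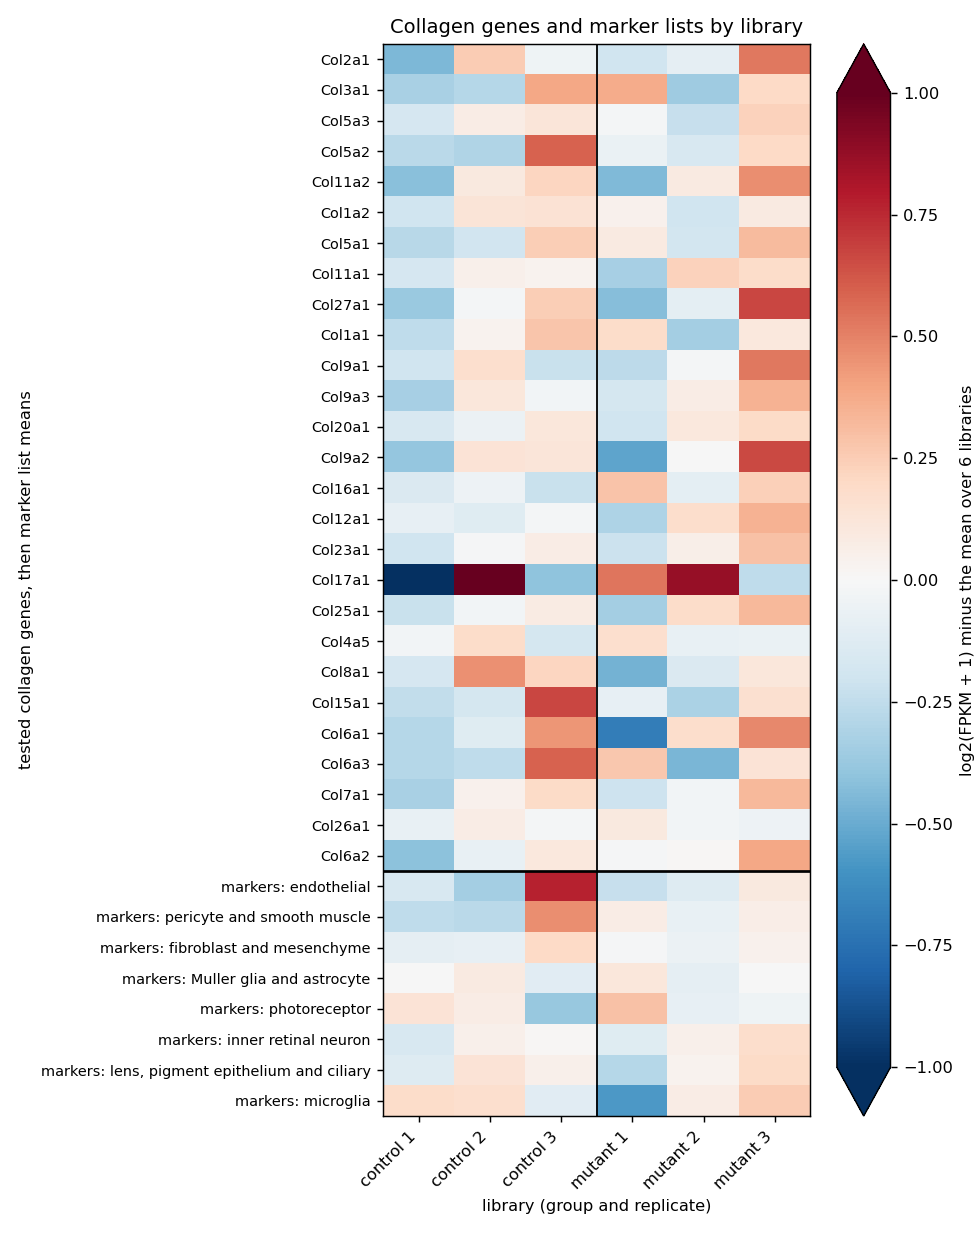
Level of each tested collagen gene and mean level of each marker list in each library, as log2(FPKM + 1) minus the mean over the 6 libraries, with red above and blue below that mean. Mutant replicate 3 is the highest library for 15 of 27 genes, and Col17a1 passes from the lowest to the highest colour between control replicates 1 and 2.

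Sums of some marker lists of other cell types moved with both patterns, and their part in them was not tested. Pericyte and smooth muscle markers, 10 of 12 of them at 1 FPKM or more in every library, summed to 190, 204.5 and 359 FPKM in control replicates 1, 2 and 3. They summed to 272, 225 and 251 FPKM in mutant replicates 1, 2 and 3. Control replicate 3 and mutant replicate 1 therefore led, as for Col3a1 and Col6a3. The same 2 libraries had the lowest Xist, at 0.136 and 0.339 FPKM, and the part of sex make-up was not tested. Fibroblast and mesenchyme markers summed to 21.4 to 33.8 FPKM over controls and 23.3 to 25.9 over mutants. Of those 10 markers 4 reached 1 FPKM in every library, Lum and Dpt were listed at 0 throughout, and Dcn at no more than 0.148 FPKM. Lens, pigment epithelium and ciliary markers summed to 9.63, 18.1 and 14.7 FPKM in the controls and 7.19, 13.3 and 18.4 FPKM in the mutants, with 2 of 13 at 1 FPKM or more in every library. The order of the libraries in that sum was the order of Col9a2, with mutant replicate 3 highest and mutant replicate 1 lowest. The top sums were close, and the single markers did not share that order. Crygs, Lim2 and Bfsp1 were highest in mutant replicate 3, Ttr and Pmel in control replicate 2, and Cryaa and Cryba1 in mutant replicate 2. Wfdc1 was highest in control replicate 3 and Best1 in mutant replicate 1. Inner retinal neuron markers, 11 of 14 of them at 1 FPKM or more in every library, summed to 218, 248 and 223 FPKM in the controls and 222, 248 and 258 FPKM in the mutants. Microglia markers, 5 of 8 of them at that level, summed to 38.4, 39.45 and 28.95 FPKM in the controls and 15.75, 34.4 and 43 FPKM in the mutants. Both sums were highest in mutant replicate 3, and the microglia sum was lowest in mutant replicate 1. Single markers differed. Grm6, Lhx1, Nefl, Pax6, Thy1 and Trpm1 were highest in mutant replicate 3, Gad1 and Onecut1 in mutant replicate 2. Prkca peaked in mutant replicate 1, Vsx1 and Slc6a9 in control replicate 2, and Rbpms, Pou4f1 and Tfap2a in control replicate 3. Aif1, C1qa, C1qb and Tmem119 peaked in mutant replicate 3. Csf1r, Cx3cr1 and Trem2 peaked in control replicate 2 and P2ry12 in control replicate 1. Muller glia and astrocyte markers summed to 222.5 to 275 FPKM over controls and 232 to 271 over mutants. Of the 7 cartilage and bone markers, Alpl and Sox9 were at 1 FPKM or more, Matn1 was listed at 0 in all libraries, and Acan at no more than 0.05865 FPKM.

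The labels letter the libraries, and most tested members had opposite differences in the 2 sets of letters. The sources used here do not say what a letter denotes. Among the libraries lettered A to C (control replicates 1 and 2, mutant replicate 1), Col3a1 was higher in the mutant by 0.68 on the log2 scale and Col15a1 by 0.13. Among those lettered D to F (control replicate 3, mutant replicates 2 and 3), the same differences were -0.46 and -0.75. Col2a1 went the other way, at -0.10 and 0.26, as did Col9a1 at -0.25 and 0.48. In all, 20 of the 27 tested members (74.1%) had opposite signs in the 2 sets, beside 52.6% of all genes tested. The 9 that were higher in mutants only among A to C were Col1a1, Col1a2, Col3a1, Col5a1, Col5a2, Col5a3, Col6a3, Col15a1 and Col26a1. The 11 that were higher only among D to F held all tested chains of collagens II, IX and XI with Col12a1, Col20a1, Col23a1, Col25a1 and Col27a1. Col16a1, Col17a1, Col4a5 and Col6a2 were higher in mutants in both sets, and Col6a1, Col7a1 and Col8a1 were lower in both. Each set holds 1 library of one group, mutant replicate 1 in A to C and control replicate 3 in D to F, too few for a test within it. The 10 endothelial markers, high in control replicate 3, differed by -0.13 to 0.10 within A to C and by -1.002 to -0.53 within D to F, and their part in these signs was not tested. Mutant replicate 1 and control replicate 3 were also the libraries with Xist at 0.339 and 0.136 FPKM, against 93.5 to 329 FPKM in the others. Group and sex make-up therefore cannot be told apart within either set. With the letters as a block, the limma estimate for Col16a1 was 0.34 on the log2 scale (SE 0.14, adjusted p = 0.720).

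**Figure D4:**
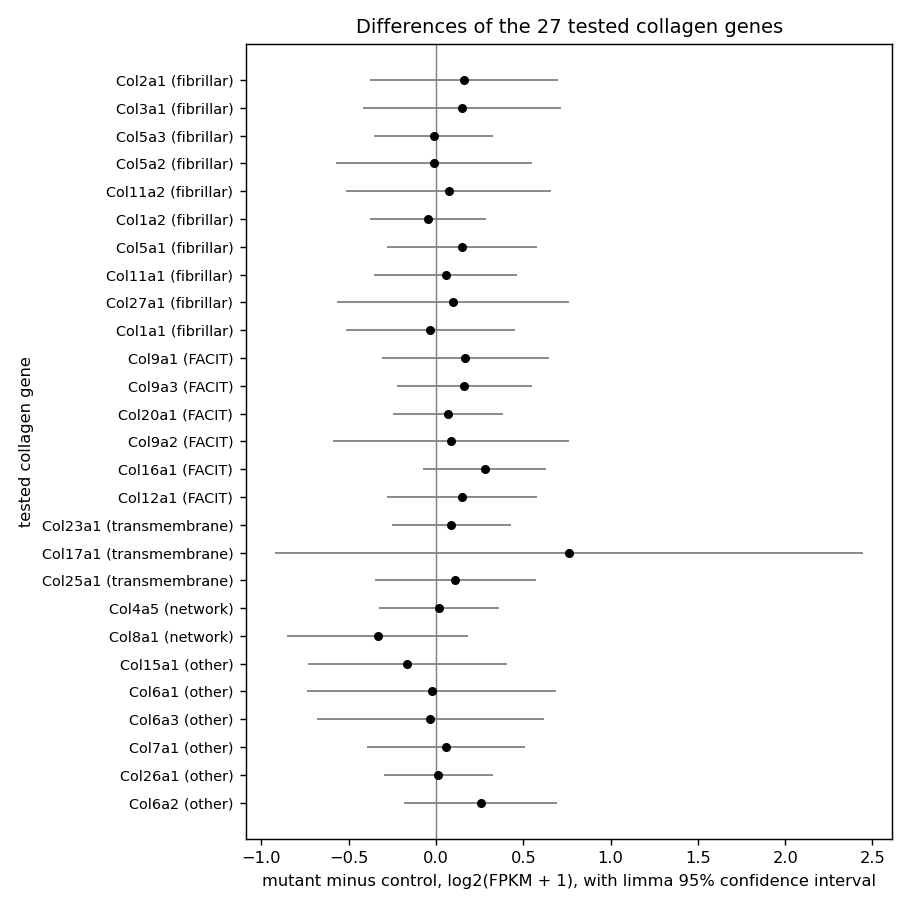
Log2 difference of each tested collagen gene, mutant minus control on log2(FPKM + 1), with its limma 95% confidence interval and its class. The intervals of all 27 genes include 0, and that of Col17a1, from -0.92 to 2.45, is the widest.

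Genes that make, trim, cut and bind collagen gave no call either. Of 59 such genes, 42 were tested, 16 were higher and 26 lower in mutants on the log2 scale, and 0 passed the limma test over all genes. At an unadjusted p under 0.05 there were 0. Among modifying enzymes 9 of 14 tested were higher. The proline hydroxylase subunit P4ha1 averaged 13.3 ± 1.28 FPKM over controls against 15.4 ± 3.09 FPKM over mutants, and the isomerase Ppib, with the highest level of the list, 170 ± 11.4 and 172.5 ± 11.4 FPKM (SD, n = 3 each). Among genes of folding and export 6 of 8 were lower. Serpinh1, the collagen-specific chaperone, measured 74.3, 69.0 and 120 FPKM in the controls and 74.1, 70.0 and 95.7 FPKM in the mutants, with control replicate 3 highest.

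Among genes of propeptide removal and cross-linking 4 of 6 tested were lower. Pcolce, which speeds removal of the carboxy-terminal propeptide, measured 3.12, 3.44 and 6.30 FPKM in the controls and 6.26, 4.09 and 5.33 FPKM in the mutants. It was high in control replicate 3 and mutant replicate 1, where Col3a1 was also high. Bmp1, the protease it assists, measured 19.99 ± 5.09 and 19.2 ± 2.2 FPKM (SD, n = 3 each). In the cleavage list 5 of 7 were lower, with the membrane protease Mmp14 at 22.9 ± 4.30 and 21.9 ± 1.95 FPKM. All 5 tested receptors had lower means on the log2 scale. The integrin chain Itgb1 gave 66.9, 60.8 and 101.1 FPKM in the controls and 71.2, 60.6 and 66.4 FPKM in the mutants, so control replicate 3 alone lay above the mutant range. The receptor list summed to 131.2, 130.8 and 188 FPKM in the controls and 126 to 141 FPKM in the mutants, with the discoidin receptor Ddr1 at 42.1 ± 4.44 and 40.25 ± 1.87 FPKM. Of the fibril-binding proteoglycans Bgn measured 40.0 ± 13.1 and 35.85 ± 3.91 FPKM, and Lum was listed at 0 in all libraries.

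The 300-base windows around the start sites were compared with all genes as a description. RefSeq's table on GRCm38.p6 held windows for 32 of the 41 members, 34 windows in all, from 250 bases before to 50 after a start. On either strand, GGGCGG was present in 58.8% of the members' windows and 35.7% of all windows, CCAAT in 29.4% and 37.4%, and TATAAA in 14.7% and 13.6%. These shares were not tested, and a match is not evidence of binding.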

How the data were processed

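The authors deposited 1 table of FPKM values with 1 column per library, and columns were matched to samples by the letters in the sample titles. The submitters' processing notes list STAR (2.5.0b), Cufflinks (2.2.1), bedtools (2.17.0), DESeq2 and the mm10 build, without roles. For annotation and strand use, the sources used here give no statement. Per the labels' protocols, library preparation used the Illumina TruSeq v2 chemistry. The 4 rows with repeated symbols were left out. The depth factor of each library was inferred from FPKM through the lengths of miRNA genes. Each row was then given the shortest length that made its reads whole in every library, so that length was fitted. Such a length was found for 16485 of 16487 rows above 0 throughout, with a tolerance of 0.002 reads that grew to 0.05 at high counts. Differences on log2(FPKM + 1) were tested two-sided in R 4.3.3 by limma 3.58.1 (trended prior). The 13619 genes tested reached 1 FPKM in 3 or more libraries, and p-values were adjusted by Benjamini-Hochberg, with a threshold of 0.05. The fit was also run on simulated data, with noise drawn independently for each gene and changes only in genes of higher level. Such data lack shifts shared by many genes of a library, and the run is not used as support here. Log2 differences with errors are given for the 8 members of highest mean level and the 8 with the smallest p. Pathway genes are those of highest level or smallest p in each list. Alternatives were a pseudocount of 0.1, no filter or a stricter one, quantile or median-of-ratios scaling, blocks for replicate number and for letter, library weights, limma voom on recovered reads, and the omission of each library. The members and lists were chosen with earlier results of these data known. Sequences and figures were made with Python 3.11.15 and matplotlib 3.10.9.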

Additional observations from a re-analysis of the deposited data

How the results depend on the processing

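The count of collagen genes called was 0 under each of 15 alternatives, as was that of the pathway genes. One of these, median-of-ratios scaling, had a factor of 1 for every library. It therefore repeated the main fit and is not a separate check. The count over all genes was 0 except with library weights, which called 145 genes and 0 collagen genes (smallest adjusted p among collagens 0.0795). The weights were 7 for mutant replicate 2, 3.34 for control replicate 2 and 0.26 to 0.747 for the other libraries. The weighted fit therefore rested mostly on 1 library of each group. At an unadjusted limma p under 0.05 that setting gave 4 collagen genes of 27 and 4069 of all 13619 genes, and no other setting gave more than 1. The median log2 difference of tested collagens ran from -0.06 to 0.21 over single omitted libraries and was 0.13 with voom. Of the 14 genes for which log2 differences are given, 11 entered every alternative, and 4 of these kept their sign throughout (Col5a1, Col9a3, Col12a1 and Col16a1). Col6a2, Col8a1 and Col17a1 were not tested under the filter of 1 FPKM in all 6 libraries. Col6a2 and Col8a1 kept their sign in the others. With library weights the differences of Col2a1, Col3a1 and Col9a1 became -0.151, -0.0218 and -0.0604 and that of Col6a1 0.28. With the letter block Col20a1 and Col23a1 stood at -0.0279 and -0.0074, and with voom Col6a1 at 0.0154. Over single omitted libraries the differences ran from -0.0542 to 1.59 for Col17a1, -0.0641 to 0.33 for Col2a1, -0.33 to 0.13 for Col15a1, -0.27 to 0.31 for Col6a1, -0.00096 to 0.38 for Col3a1, -0.0132 to 0.18 for Col20a1, -0.0365 to 0.22 for Col23a1 and -0.0557 to 0.34 for Col9a1. The cause of these changes of sign was not tested. The Anxa3 difference of -0.93 ran from -1.155 to -0.53 over single omitted libraries. Deviations from the group means correlated at 0.249, -0.151 and 0.39 between libraries of the same replicate number. Between libraries of different numbers the correlations ran from -0.352 to 0.231. These values do not settle whether the numbers pair the libraries, and the numbers entered only as a block in an alternative. The replicate block called 0 collagen genes and left the median at 0.07. Among members under the filter, Col6a6 and Col10a1 rest on at most 15 and 8 reads per library, whereas Col24a1 has 105 to 220.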

Other observations

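Other proteins with a collagen-like domain, a list chosen after the data were seen, gave no call. Of 23 genes 13 were tested, 3 were higher and 10 lower in mutants, and 0 passed the limma test or had an unadjusted p under 0.05. C1ql3, a secreted synaptic protein, led them. Control replicates 1, 2 and 3 gave 42.8, 39.5 and 24.2 FPKM, and mutant replicates 1, 2 and 3 gave 51.4, 29.9 and 27.75 FPKM. The complement genes C1qa, C1qb and C1qc, made by microglia in neural tissue, were all lowest in mutant replicate 1, at 4.125, 2.82 and 4.32 FPKM, and at 6.78 FPKM or more in the other libraries. Emilin1, a glycoprotein of elastic fibres, averaged 6.755 ± 1.90 FPKM over controls against 5.96 ± 0.992 FPKM over mutants (SD, n = 3 each).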
